A study of Mus musculus with 18 samples.

Results

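The genes described here are 10 that are used to recognise macrophages and white blood cells in mouse tissue: C1qa, C1qb, C1qc, Csf1r, Cd68, Adgre1, Cd14, Tyrobp, Lyz2 and Ptprc. They were taken by gene symbol, from a list drawn up with earlier results of these data known. The array annotation named them on 15 of its 45101 probe sets, which made them 10 of the 18193 genes with a named probe set. C1qb and Csf1r had 3 probe sets each and Ptprc had 2, and the remaining members had 1 each. Unless stated otherwise, a gene's signal is that of its probe set with the highest mean.

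RNA was measured on 18 one-colour Affymetrix arrays. The samples were 3 mammary tumors of the mouse (tumors 1, 2 and 7), split by surface staining for CD29 (integrin beta 1) and CD24. The gates gave 4 populations per tumor, CD29H CD24H, CD29H CD24L, CD29L CD24H and CD29L CD24L, where H is high and L is low, with 1 array each (n = 3 tumors per population). Normal mammary epithelial cells gave CD29H CD24P cells (P is positive) from 2 preparations, CD29P CD24H cells from the same 2, and CD24L cells from preparation 2, and 1 array held a commercial reference RNA. Tumors 1 and 2 are labelled as transplant generation 1, and tumor 7 has no such label. The labels give no genotype, strain or age. The study is known for tumors of Trp53-null mammary epithelium grown as transplants, in which white blood cells come from the host mouse, and for describing its sorted tumor cells as lineage-negative. The labels name the CD29 and CD24 antibodies and no step that removed blood cells. The sources used here do not say whether the normal preparations came from separate animals, so p-values between them measure only the spread between these samples.

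Macrophages settle in the mammary gland and gather in its tumors, where they engulf dying cells, present antigens and release growth factors. C1qa, C1qb and C1qc encode the chains of C1q, the recognition part of the first complement complex, which in tissue is made mostly by macrophages. Csf1r encodes the receptor for the macrophage growth factors CSF1 and IL34, Adgre1 the F4/80 surface protein, and Cd68 a glycoprotein of lysosomes and endosomes. Cd14 encodes the co-receptor that hands bacterial lipopolysaccharide to TLR4, and is also known from luminal cells of the mouse mammary gland. Tyrobp encodes DAP12, an adaptor that carries the signal of myeloid and natural killer cell receptors. Lyz2 encodes lysozyme M of macrophages and neutrophils. Ptprc encodes CD45, the phosphatase found on nucleated blood cells, so that it marks lymphocytes as well as macrophages.

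The C1q genes lie next to each other on chromosome 4 in the order C1qb, C1qc and C1qa, with 0 other genes between them in the reference gene table. Promoter windows (250 bases before to 50 bases after the annotated start; RefSeq, GRCm38.p6) were matched for 5 of the 10 members and gave 6 windows, of which both Ptprc windows overlap. The 4 windows below are shown because C1qb, C1qc and Lyz2 followed one another closely across the arrays while Ptprc kept a different pattern. All 4 lie on the minus strand and are written 5′ to 3′ along the gene: C1qb at chr4:136886151-136886450, C1qc at chr4:136892865-136893164, Lyz2 at chr10:117282223-117282522 and Ptprc at chr1:138175256-138175555. Capitals mark the ETS-type motif GGAAGT or its reverse complement ACTTCC.
C1qb: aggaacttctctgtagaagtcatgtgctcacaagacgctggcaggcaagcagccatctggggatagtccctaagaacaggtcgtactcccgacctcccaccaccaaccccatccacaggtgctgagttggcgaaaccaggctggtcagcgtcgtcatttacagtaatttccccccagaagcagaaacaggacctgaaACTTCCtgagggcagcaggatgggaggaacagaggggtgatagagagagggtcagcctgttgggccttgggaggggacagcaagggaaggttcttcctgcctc
C1qc: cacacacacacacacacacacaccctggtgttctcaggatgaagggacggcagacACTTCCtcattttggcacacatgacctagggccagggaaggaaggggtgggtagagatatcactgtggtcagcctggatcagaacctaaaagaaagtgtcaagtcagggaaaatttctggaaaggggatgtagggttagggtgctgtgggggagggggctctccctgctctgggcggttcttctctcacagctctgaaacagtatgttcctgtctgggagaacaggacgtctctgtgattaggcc
Lyz2: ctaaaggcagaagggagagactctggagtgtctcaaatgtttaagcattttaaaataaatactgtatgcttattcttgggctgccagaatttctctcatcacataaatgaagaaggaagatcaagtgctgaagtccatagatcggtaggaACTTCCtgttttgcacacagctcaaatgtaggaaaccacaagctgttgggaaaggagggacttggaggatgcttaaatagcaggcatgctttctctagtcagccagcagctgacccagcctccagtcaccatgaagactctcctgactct
Ptprc: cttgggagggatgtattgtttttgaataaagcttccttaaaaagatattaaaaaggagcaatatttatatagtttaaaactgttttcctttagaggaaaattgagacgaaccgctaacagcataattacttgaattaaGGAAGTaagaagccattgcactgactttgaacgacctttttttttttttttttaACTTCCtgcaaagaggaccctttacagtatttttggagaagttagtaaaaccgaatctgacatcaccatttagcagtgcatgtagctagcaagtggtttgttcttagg
GGAAGT, read on both strands, was found in 6 of the 6 member windows and in 23.8% of all 32851 promoter windows of the same length. The PU.1-type motif GAGGAA was found in 4 of 6 and in 28.3% of all windows, and its matches can overlap those of GGAAGT. The AP-1-type motif TGANTCA was found in 1 of 6, that of Cd68, and in 7.81% of all windows. These counts describe letters in the windows and are no evidence of binding.

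On the sorted-cell arrays the trimmed mean signal was 500.0 units on each array and the median lay between 71.6 and 104.2 units. The actin 3′/5′ signal ratio, which rises as RNA is degraded or shortened in amplification, was 14.4 to 99.3 on the tumor arrays, against 3.08 to 24.7 on the CD29H CD24P and CD29P CD24H arrays of normal cells. On the normal CD24L array 11 epithelial markers summed to 2019 units and 11 fibroblast markers to 279200 units, and Epcam had 100.2 units, which goes against its epithelial label. It is therefore described by itself and entered no mean of normal cells. RNA of the gated proteins did not always follow the tumor gates. Itgb1 (CD29) had 1893, 534 and 4529 units in CD29H CD24H cells of tumors 1, 2 and 7, against 1049, 1490 and 8532 in CD29L CD24H cells. Cd24a had 37525, 49678 and 48270 units in CD29L CD24H cells, against 43384, 18257 and 41916 in CD29L CD24L cells. At the CD24 low gate Itgb1 was higher in the CD29 high cells of each tumor. In sorted bulk RNA, fewer cells of a type and less RNA per cell cannot be told apart.

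Of the 10 genes, 5 passed the test as higher in tumor cells than in normal epithelial cells, and 5 did not pass. For this comparison the arrays of a tumor or preparation were averaged as log2(signal + 32), so that n = 3 tumors and n = 2 preparations, and limma was run on all 10916 genes that passed the filter on dim genes. All 10 members had a positive difference, tumor minus normal, with a median of 2.33 beside 0.02 over all genes tested. The 5 that passed as higher in tumors at an adjusted p under 0.05 were C1qb, Csf1r, Adgre1, Tyrobp and Lyz2, where 4.3% of all genes passed in that direction and 7.65% in either. On the single arrays, by the probe set of highest mean, 4 of the 10 had all 12 tumor values above all 4 normal values. These were C1qb, Csf1r, Adgre1 and Lyz2, and 4.27% of all genes had this arrangement.

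**Figure D1:**
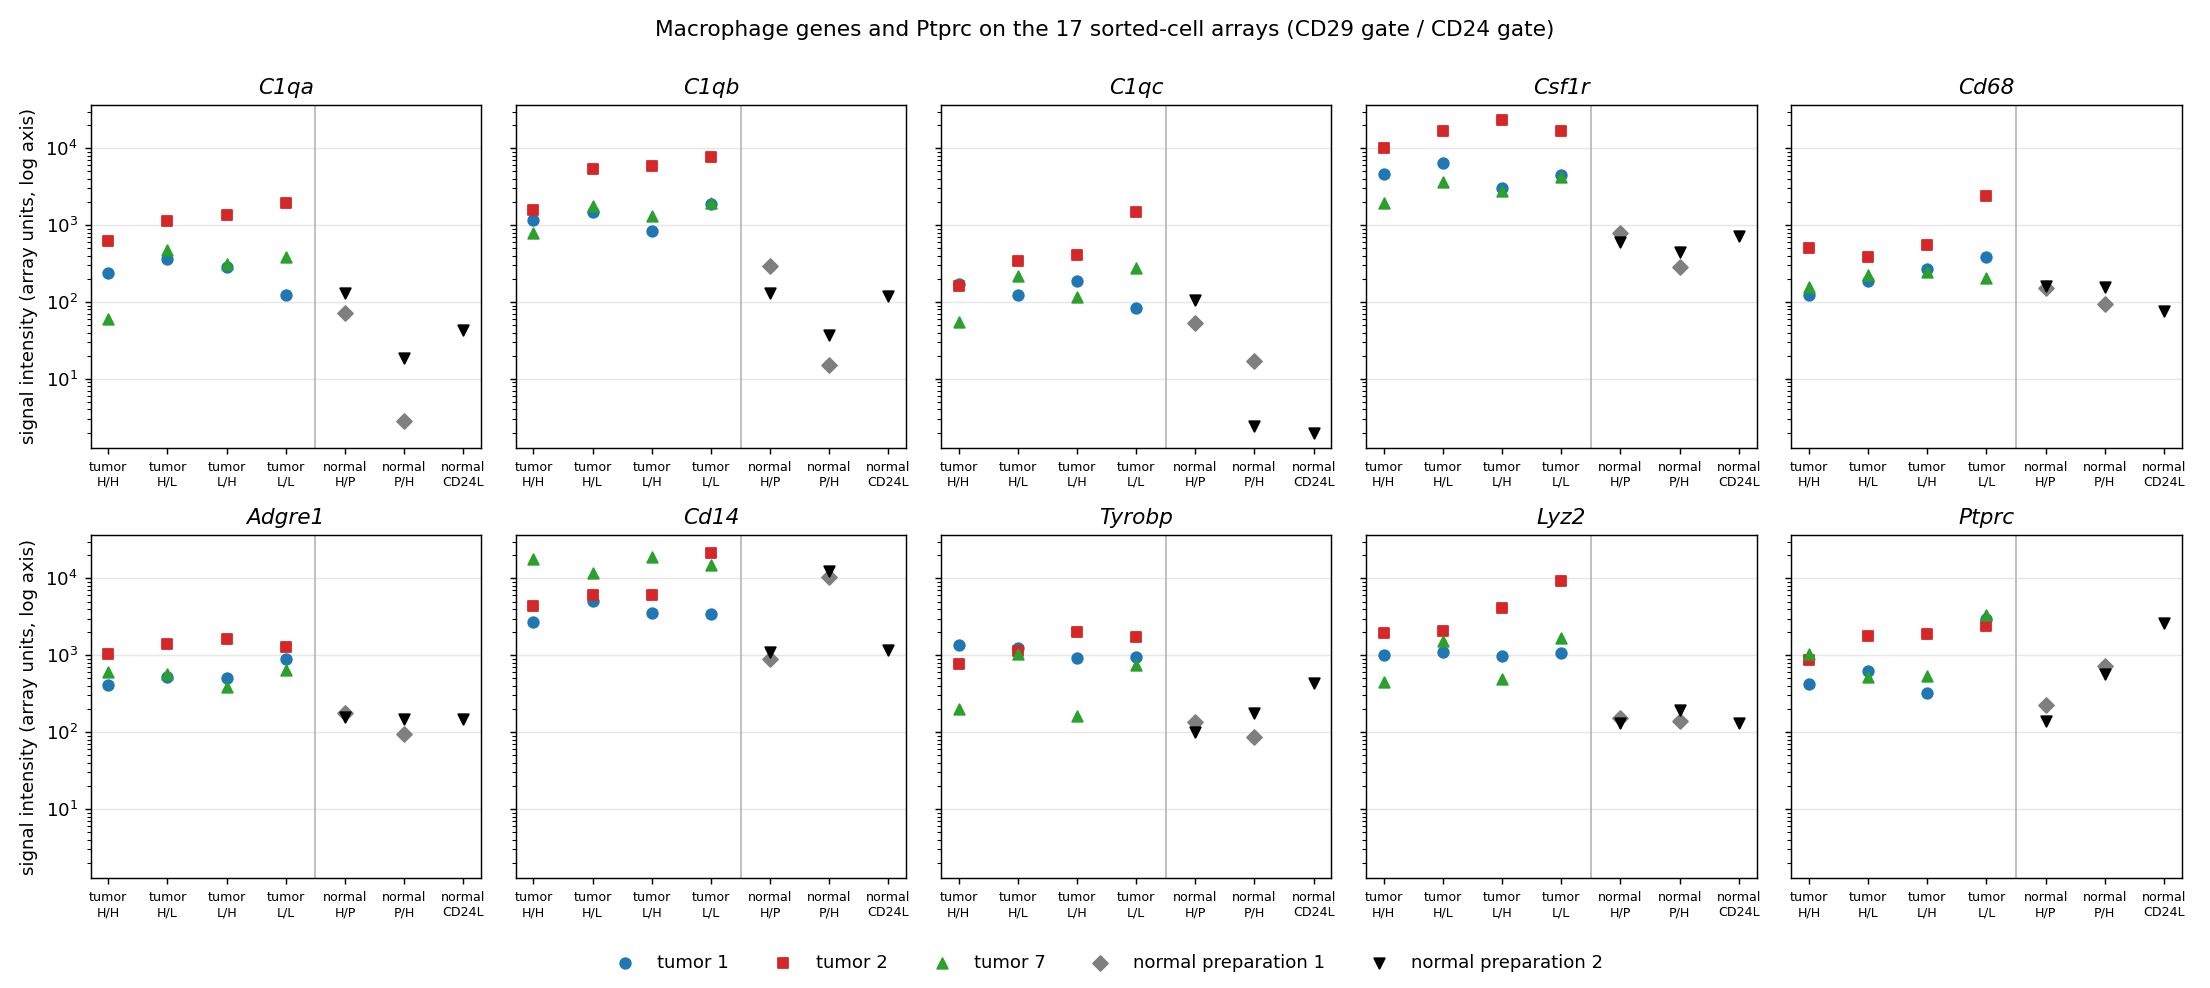
Signal of the 10 genes on the 17 sorted-cell arrays, 1 panel per gene, on a log axis in array units. Each point is 1 array, with tumor populations left of the line and normal populations right of it (CD29 gate before the slash, CD24 gate after it). Tumor 2 (red squares) is the highest tumor in each population for C1qa, C1qb, Csf1r, Cd68, Adgre1 and Lyz2, whereas Ptprc is highest in the CD29L CD24L cells of each tumor.

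Of the C1q chains, C1qb had 1158, 1572 and 780.2 units in the CD29H CD24H cells of tumors 1, 2 and 7, and 1500.2, 5337 and 1754 units in their CD29H CD24L cells. It had 843, 5954 and 1319 units in CD29L CD24H cells and 1887, 7661 and 1964 units in CD29L CD24L cells. The normal CD29H CD24P cells had 296 and 132 units and the normal CD29P CD24H cells 15.2 and 37.7 units. By this probe set, the one of highest mean, no tumor array overlapped the normal ones. By the dimmest C1qb probe set the groups overlapped. It had 54.8 and 146 units in normal CD29H CD24P cells, and 61.3 and 71.5 units in CD29H CD24H cells of tumors 1 and 7. The difference on the log2(signal + 32) scale, tumor minus normal, was 4.13 ± 0.54 (SE; adjusted p = 0.00983 with limma). This is the member with the largest fitted difference between tumor and normal means.

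C1qa had 240.2, 617 and 59.6 units in the CD29H CD24H cells of tumors 1, 2 and 7, and 358, 1122 and 472 units in their CD29H CD24L cells. In CD29L CD24H cells it had 288, 1361 and 313 units, and in CD29L CD24L cells 123, 1963 and 385 units. Normal CD29H CD24P cells had 72.8 and 132 units and normal CD29P CD24H cells 2.83 and 18.8 units. The groups overlapped, since the CD29H CD24H array of tumor 7 lay below both normal CD29H CD24P arrays and the CD29L CD24L array of tumor 1 below the higher of them. The difference between tumor and normal means was 2.61 ± 0.66 on the log2 scale and did not pass (adjusted p = 0.0561).

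C1qc encodes the chain that pairs with those of C1qa and C1qb in the C1q molecule. It had 172, 160.4 and 54.6 units in CD29H CD24H, 123, 339 and 219.7 in CD29H CD24L, 187, 413 and 115 in CD29L CD24H, and 83.0, 1483 and 276 in CD29L CD24L cells of tumors 1, 2 and 7. The normal CD29H CD24P cells had 52.8 and 107 units, and the normal CD29P CD24H cells 17.2 and 2.45 units. The tumor and normal arrays overlapped, and the difference of 1.85 ± 0.48 did not pass (adjusted p = 0.0613).

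Csf1r had 4617, 10047 and 1954 units in the CD29H CD24H cells of tumors 1, 2 and 7, and 6353, 16957 and 3599 units in their CD29H CD24L cells. It had 3021, 23092 and 2801 units in CD29L CD24H cells and 4499, 16835 and 4181 units in CD29L CD24L cells. Against these, normal CD29H CD24P cells had 800.4 and 605 units and normal CD29P CD24H cells 286 and 448 units. The lowest tumor array lay above the highest normal one. The difference, tumor minus normal, was 3.50 ± 0.66 (adjusted p = 0.0264), and 2.32 (adjusted p = 0.0514) with the mean of its probe sets.

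Adgre1 followed the same arrangement. It had 415, 1026 and 611 units in CD29H CD24H cells of tumors 1, 2 and 7, 516, 1399 and 571 in CD29H CD24L, 508, 1643 and 390.1 in CD29L CD24H, and 901, 1294 and 649.7 in CD29L CD24L cells. The 4 normal arrays lay between 95.7 and 177 units, all below the tumor arrays. The difference was 2.16 ± 0.42 (adjusted p = 0.0286). Cd68 was higher in tumors by 1.07 ± 0.52, which did not pass (adjusted p = 0.233). Its tumor values were 123, 504 and 158 units in CD29H CD24H, 187, 385 and 225 in CD29H CD24L, 269.7, 546 and 246 in CD29L CD24H, and 387, 2408 and 204 in CD29L CD24L cells. With 95.1 to 162 units on the 4 normal arrays, the Cd68 groups overlapped at the CD29H CD24H cells of tumors 1 and 7.

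Tyrobp had 1353, 775 and 202 units in the CD29H CD24H cells of tumors 1, 2 and 7, 1231, 1129 and 1037 in CD29H CD24L, 911, 2010.3 and 163 in CD29L CD24H, and 952, 1745 and 739 in CD29L CD24L cells. In normal CD29H CD24P cells it had 135 and 101 units, and in normal CD29P CD24H cells 87.6 and 180.1 units. Of the 12 tumor arrays, only the CD29L CD24H array of tumor 7 lay within the normal range. Its difference was 2.51 ± 0.49 (adjusted p = 0.0288).

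Lyz2 had 1004, 1972 and 447 units in CD29H CD24H cells of tumors 1, 2 and 7, 1115, 2084 and 1543 in CD29H CD24L, 991, 4117 and 486 in CD29L CD24H, and 1073, 9156 and 1657 in CD29L CD24L cells. The 4 normal arrays lay between 131 and 197 units, below each tumor array. Lyz2 was higher in tumors by 3.02 ± 0.58 (adjusted p = 0.0274). Its near-identical neighbour Lyz1, lysozyme P, was higher by 4.88 ± 0.46 (adjusted p = 0.00467), and the probe sets may share RNA of both genes, so the split between them is uncertain.

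Cd14 stood apart from the other macrophage genes. It had 2739, 4341 and 17665 units in CD29H CD24H cells of tumors 1, 2 and 7, 5065, 6157 and 11809 in CD29H CD24L, 3504, 6089 and 19268 in CD29L CD24H, and 3441, 21269.6 and 14759 in CD29L CD24L cells. Normal CD29P CD24H cells had 10484 and 12377 units, within the range of the tumor arrays, while normal CD29H CD24P cells had 906 and 1089 units, below each tumor array. The difference between tumor and normal means was 1.15 ± 0.56 and did not pass (adjusted p = 0.237).

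Ptprc had 428, 877 and 1028 units in the CD29H CD24H cells of tumors 1, 2 and 7, 625, 1791 and 522 in CD29H CD24L, 323, 1874 and 538 in CD29L CD24H, and 2982, 2428 and 3316 in CD29L CD24L cells. The normal CD29H CD24P cells had 227 and 138 units, and the normal CD29P CD24H cells 728 and 573 units. Tumor and normal arrays overlapped through the CD29P CD24H cells, and the difference of 1.53 ± 0.40 did not pass (adjusted p = 0.0603).

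**Figure D2:**
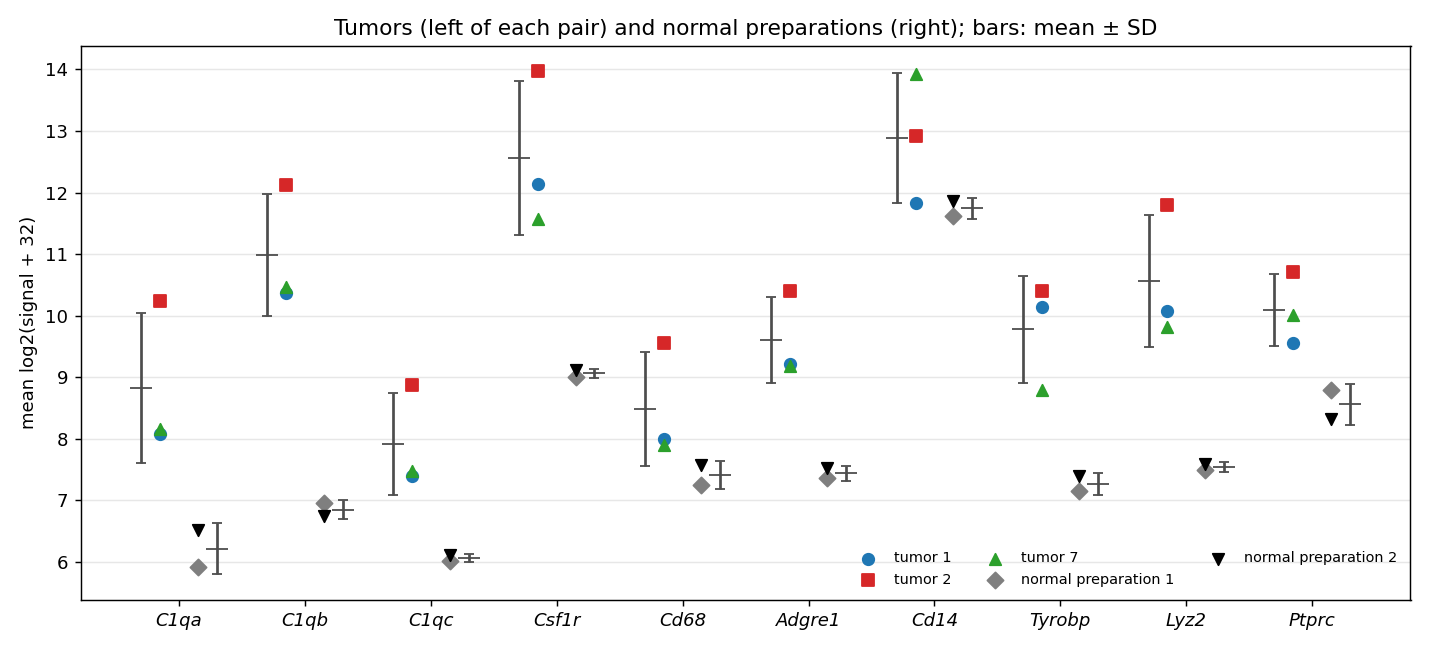
Mean log2(signal + 32) of each tumor (4 arrays; left of each pair) and each normal preparation (CD29H CD24P and CD29P CD24H arrays; right), with the mean and SD of the 3 tumors and of the 2 preparations as bars. The 3 tumors lie above both preparations for each gene but Cd14, for which tumor 1 lies between them.

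The count of 5 rests on few replicates. It was 1 without tumor 1, 0 without either normal preparation, 1 with the normal CD24L array in the mean of preparation 2, and 0 with the actin 3′/5′ ratio as a covariate, a setting chosen after seeing the data in which the median difference was 3.45. The actin ratio of each tumor array was higher than that of 3 of the 4 normal arrays, and its part in the difference was not tested by any other means.

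Genes that work with these members were read from lists fixed by name. Of 22 tested macrophage genes other than the members, 13 were higher in tumors, 0 were lower and 21 had a positive difference, with a median of 2.14. Among them were the lectins Clec4d (4.85 ± 0.49, adjusted p = 0.00546) and Clec4n (3.38 ± 0.41, 0.00771), Ms4a6d (4.86 ± 0.59, 0.00771) and the mannose receptor Mrc1 (3.91 ± 0.54, 0.0113). Of 8 partners of C1q in complement and C1q receptors 3 were higher: Cd93 (3.85 ± 0.58), the protease C1s1 (2.19 ± 0.35) and Serping1, the C1 inhibitor (2.22 ± 0.39). Of 16 lysosomal genes of phagocytes 3 were higher, the cathepsins Ctss (2.58 ± 0.35) and Ctsc (1.58 ± 0.35) and Lyz1.

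Receptors and kinases that signal through Tyrobp had 1 of 6 higher, Trem1 (2.02 ± 0.35, adjusted p = 0.0209), and the kinase Syk did not pass (1.43 ± 0.36, 0.0560). On the list of the CSF1 axis, its ligands, related receptors and transcription factors, 0 of 11 were higher and 1 was lower, Runx1 (−1.97 ± 0.36, 0.0244). None of 6 Cd14 partners passed, and Tlr2 had 1.07 ± 0.30 (0.0730). Of 19 further genes shared by white blood cells, Cd53 (2.06 ± 0.37) and Laptm5 (2.18 ± 0.47) were higher and Evi2a was lower (−1.74 ± 0.28). Markers of some other cell types also moved with the tumors: 10 of 11 fibroblast genes were higher, for example Col1a1 (5.70 ± 0.56), and 3 of 5 neutrophil genes, S100a8 (4.57 ± 0.37), S100a9 (3.00 ± 0.31) and Mmp9 (2.15 ± 0.36). Lymphocyte lists were mixed. Of 5 T and natural killer cell genes 4 had a positive difference, with a median of 0.83 over the list. Among these 5 genes 1 passed as higher, Thy1, also a fibroblast marker, and 1 as lower, Ccl5 (−2.67 ± 0.26, adjusted p = 0.00542). Of 6 B and plasma cell genes 0 were higher and 1 was lower, Jchain (−3.29 ± 0.45, 0.0115). Of 11 epithelial genes 0 were higher and 1 was lower, Krt19 (−5.94 ± 1.08, 0.0240). Those 11 fibroblast markers summed to between 10910 and 216500 units on the tumor arrays, against 9381 to 12750 units on the 4 normal arrays, and their part in the macrophage difference was not tested.

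The tumors differed from one another more than their sorted populations did for 9 of the 10 genes. The tumor of origin took 86.4% of the sum of squares of Csf1r among the 12 tumor arrays, 77.3% of Adgre1, 70.5% of Cd14, 66.2% of C1qa, 62.1% of C1qb, 60.3% of Lyz2, 56.5% of Cd68, 51.0% of Tyrobp and 43.5% of C1qc. The sorted population took between 5.87% (Csf1r) and 26.3% (C1qb) for these 9. Over all genes the median shares were 38.5% for the tumor and 23.3% for the population. Ptprc was the exception, with 19.1% for the tumor and 58.6% for the population.

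**Figure D3:**
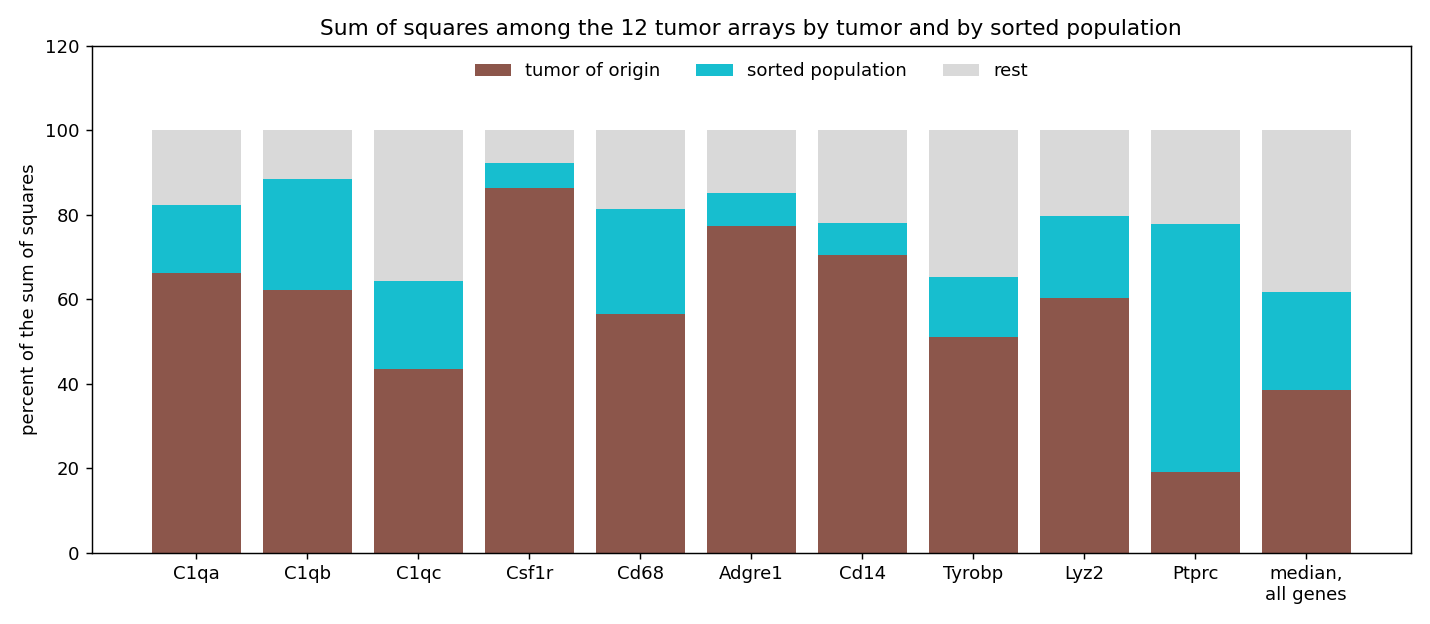
Percent of the sum of squares of log2(signal + 32) among the 12 tumor arrays that falls to the tumor of origin, the sorted population and the rest, per gene. At the right are the median tumor and population shares over all genes. The rest is drawn there as the remainder, while its own median was 28.3%. Csf1r has the largest tumor share (86.4%) and Ptprc the largest population share (58.6%).

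Tumor 2 was the tumor with the most macrophage RNA by most of these genes. It had the highest signal of the 3 tumors in each of the 4 populations for 6 of the 10 (C1qa, C1qb, Csf1r, Cd68, Adgre1 and Lyz2), as did 8.92% of all genes. For 4 of them (C1qa, Csf1r, Adgre1 and Lyz2) all 4 arrays of tumor 2 lay above the 8 arrays of tumors 1 and 7, as for 3.01% of all genes. Csf1r ranged over 10047 to 23092 units in tumor 2, against 3021 to 6353 in tumor 1 and 1954 to 4181 in tumor 7. Lyz2 ranged over 1972 to 9156 units in tumor 2, against 991 to 1115 in tumor 1 and 447 to 1657 in tumor 7. A tumor has no replicate here, so these are values of 3 single tumors, and they were not tested against one another. The highest C1qa, C1qb, C1qc, Cd68, Cd14 and Lyz2 signals of the sorted-cell arrays came from the CD29L CD24L array of tumor 2, whose actin ratio of 14.4 was the lowest of the tumor arrays.

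Cd14 had its highest mean in tumor 7 instead, with 11809 to 19268 units, against 2739 to 5065 units in tumor 1 and 4341 to 21269.6 units in tumor 2. Krt8, a keratin of luminal cells, was also highest in tumor 7, with 36268 to 48254 units. It had 2881 to 10455 units in tumor 1 and 1387 to 8759 units in tumor 2. Between tumors 1 and 2 Krt8 did not follow Cd14. In CD29H CD24H, CD29H CD24L and CD29L CD24H cells Krt8 was lower in tumor 2 than in tumor 1, while Cd14 was higher. Krt18, another keratin of luminal cells, went the other way and was higher in tumor 2 than in tumor 1 in each population, as Cd14 was. Krt18 ranged over 2678 to 7469 units in tumor 1, 3443 to 13260 in tumor 2 and 13344 to 20141 in tumor 7. Epcam, another epithelial gene, overlapped between the tumors, with 9408 to 25940 units in tumor 7 and 12088 to 20400 units in tumor 1. In normal cells Krt8 had 18828 and 20852 units in the CD29H CD24P gate, where Cd14 was low, and 44892 and 45862 units in the CD29P CD24H gate, where Cd14 was high. Krt18 had 4660 and 5432 units in the CD29H CD24P gate and 28822 and 34228 units in the CD29P CD24H gate. On the normal CD24L array Cd14 had 1172 units and Krt8 827 units. Whether luminal cells carried the Cd14 signal was not tested.

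The study sorted its tumors to describe the CD29H CD24H cells, known from it as the tumor-initiating cells, and these were set against the double-low cells first. All 10 members had a negative difference, CD29H CD24H minus CD29L CD24L, with a median of −1.15 beside 0.01 over all genes. None of the 10 passed with limma at an adjusted p under 0.05 and 1, Ptprc, had an unadjusted p under 0.05, while 0.0366% of all genes passed the adjusted threshold and 6.19% the unadjusted. In each of the 3 tumors, 5 of the members had a lower signal in CD29H CD24H cells (C1qb, Cd68, Adgre1, Lyz2 and Ptprc), as had 17.1% of all genes. For 2 of the 10 (C1qb and Ptprc) the 3 CD29H CD24H arrays all lay below the 3 CD29L CD24L arrays, as for 5.43% of all genes. With the tumor as a block 0 of 10 passed, where 0.531% of all genes did, and the smallest adjusted p values were 0.0604 for Ptprc and 0.0825 for C1qb.

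Ptprc differed most, by −1.94 ± 0.62 (adjusted p = 0.619), and within tumors 1, 2 and 7 by −2.71, −1.44 and −1.66. The 3 CD29L CD24L arrays lay above the 9 arrays of the other populations, an arrangement that 0.779% of all genes had. C1qb differed by −1.42 ± 0.75 (adjusted p = 0.814), with −0.69, −2.26 and −1.30 in the 3 tumors. Lyz2 differed by −1.37 ± 0.86 and Cd68 by −1.31 ± 0.75, and both had their widest gap in tumor 2, at −2.20 and −2.19. Adgre1 (−0.49 ± 0.56), Cd14 (−0.78 ± 0.82), Tyrobp (−0.79 ± 0.78) and Csf1r (−0.60 ± 0.89) were within about their standard error of 0 in the unblocked fit. These differences exceeded their standard errors once the tumor was a block (0.31, 0.41, 0.50 and 0.32 in that order). None of these genes passed there with limma (adjusted p from 0.362 to 0.448). For Csf1r the sign turned, to 0.0526, when the double-low array of tumor 2 was left out. The other Csf1r probe sets were lower in CD29H CD24H than in CD29L CD24L cells of each tumor. The brighter of them had 524, 964 and 291 units against 864, 3960 and 856 units in tumors 1, 2 and 7. The dimmer had 172, 342 and 136 units against 182, 454 and 191 units.

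C1qa and C1qc parted from C1qb in tumor 1. C1qa was lower in CD29H CD24H cells by −0.997 ± 0.93 in the fit and C1qc by −1.33 ± 0.78, with −1.62 and −2.98 in tumor 2 and −2.19 and −1.83 in tumor 7. In tumor 1 both were instead higher, by 0.82 and 0.83. The CD29L CD24L array of that tumor had its lowest C1qa and C1qc signals (123 and 83.0 units) and its highest C1qb signal. The other C1qb probe sets also had their highest signals in tumor 1 on that array, 1432 units by the one that was brightest in normal cells. That array had the highest actin 3′/5′ ratio of the series, 99.3, and the part of this ratio in the discrepancy was not tested.

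**Figure D4:**
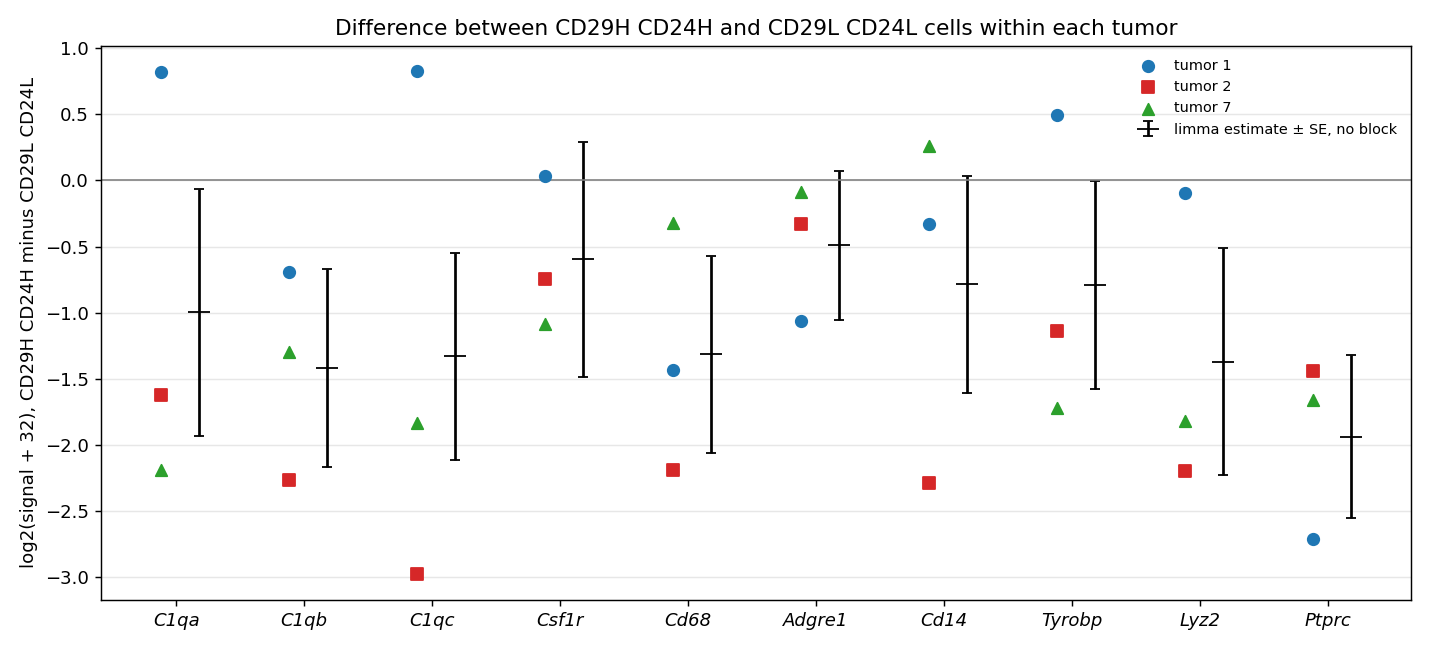
Difference in log2(signal + 32) between CD29H CD24H and CD29L CD24L cells within each tumor (coloured points) and the limma estimate with its SE (black bars), per gene. The points of C1qb, Cd68, Adgre1, Lyz2 and Ptprc lie below 0 in each tumor, and those of C1qa, C1qc, Csf1r and Tyrobp lie above 0 in tumor 1.

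The CD29H CD24H cells were also set against each of the other populations. Compared with CD29H CD24L cells, all 10 members had negative differences, with a median of −0.67 beside 0.05 for all genes, and 4 had a lower signal in each tumor (C1qa, C1qb, Csf1r and Lyz2), as had 18.4% of all genes. When the CD29H CD24H array of tumor 7 was left out the median was −0.24, and it was −0.38 when tumor 2 gave no CD29H CD24L array. In the same comparison 8 of 11 fibroblast genes were lower in CD29H CD24H cells, with a median of −3.53, and 3 of 8 C1q partners, with a median of −2.14. The part of fibroblasts in the members' differences was not tested. The largest were C1qa (−1.27 ± 0.93) and C1qb (−1.08 ± 0.75). Compared with CD29L CD24H cells, 9 of 10 were negative with a median of −0.37, the largest being C1qa (−1.08 ± 0.93). That median turned to 0.27 without the CD29L CD24H array of tumor 2, and was −0.94 without that of tumor 7. Against the mean of the other 3 populations, C1qa differed by −1.12 ± 0.76, C1qb by −1.08 ± 0.61 and Ptprc by −0.69 ± 0.50. None of the 10 passed with limma in these 3 comparisons at an adjusted or an unadjusted p under 0.05, where 2.17%, 0% and 0% of all genes passed the adjusted threshold and 8.49%, 2.63% and 6.95% the unadjusted. With the block none passed either, where 4.93%, 0.00916% and 0.779% of all genes did. In no gene of the 10 was the CD29H CD24H array the lowest of its tumor in each of the 3 tumors, as it was for 3.28% of all genes.

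The population that stood out for Ptprc was CD29L CD24L. The CD29H CD24L cells were lower than it by −1.74 ± 0.62, which did not pass in the unblocked fit (adjusted p = 0.348) and passed with the tumor as a replicate block (SE 0.45, adjusted p = 0.0390). With the block 1 of 10 members was thus lower, where 0.632% of all genes were lower and 4.42% passed in either direction; without it none passed and 1.14% of all genes did, with 1 member, Ptprc, at an unadjusted p under 0.05 beside 8.6% of all genes. Cd68 differed in the same comparison by −1.12 ± 0.75. Of 7 T and natural killer cell genes 3 were lower in these CD29H CD24L cells (4 with the block, median −2.29), and of 11 fibroblast genes 2 were higher (9 with the block, median 2.54). The part of these cells in the Ptprc difference was not tested. The CD29L CD24H cells were lower than CD29L CD24L cells in Ptprc by −2.00 ± 0.62 and in Lyz2 by −0.99 ± 0.86. Of the 10 members 0 passed (0.0183% of all genes, and 0.0916% with the block, where also 0 members passed), with 1, Ptprc, at an unadjusted p under 0.05 (3.23% of all genes). The interaction for Ptprc, that is whether the CD29 difference was the same at both CD24 gates, was 1.81 ± 0.87 (adjusted p = 0.869). No member passed for the interaction with limma at an adjusted p (0% of all genes) or an unadjusted p under 0.05 (5.92% of all genes), nor with the block (1.93% of all genes). C1qb and Ptprc were the only 2 of the 10 that were highest in the CD29L CD24L cells of each tumor, as were 3.36% of all genes. The second Ptprc probe set gave 155, 349 and 451 units in CD29L CD24L cells, against 1.99 to 127 units on the other 9 tumor arrays, so that it also did not overlap.

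Lymphocyte and neutrophil genes moved with Ptprc between the double-high and double-low cells. Of 7 tested T and natural killer cell genes, 7 were negative in CD29H CD24H minus CD29L CD24L cells, with a median of −3.20, and 3 passed as lower, the co-stimulator Icos (−5.08 ± 0.64, adjusted p = 0.0172), Ms4a4b (−3.77 ± 0.53, 0.0289) and the chemokine Ccl5 (−3.79 ± 0.54, 0.0289). With the tumor as a block 5 passed, among them the granzyme Gzmb (−3.04 ± 0.48, 0.0150). The 17 of 19 listed markers on the array summed to 693.7 to 1230 units in CD29H CD24H, 5211 to 6706 in CD29H CD24L, 1081 to 2131 in CD29L CD24H and 5890 to 15730 units in CD29L CD24L cells. The list includes Thy1, which also stands on the fibroblast list and alone had 3997, 5150 and 3666 units in CD29H CD24L cells, most of the sum there, while Icos had 97.1 to 234 units in those cells. Cd3e, a chain of the T cell receptor complex, had 12.7 to 71.4 units in CD29H CD24H cells, against 606, 64.7 and 273 units in CD29L CD24L cells (tumors 1, 2 and 7). In tumor 2 Cd3e thus stayed within the range of the CD29H CD24H cells. Other markers did not: in its CD29L CD24L cells Icos had 927 units, Ccl5 2315 and Ms4a4b 369, against at most 99.6, 84.8 and 64.4 units on the CD29H CD24H arrays. All 5 tested neutrophil genes were also negative in CD29H CD24H minus CD29L CD24L cells, with a median of −1.58. None passed in the unblocked fit, and S100a9 passed with the block (−3.41 ± 0.49, adjusted p = 0.0102). The 11 neutrophil markers summed to 1605 to 6063 units in CD29H CD24H cells, against 8988 to 36100 in CD29L CD24L cells. Of 5 B and plasma cell genes 4 were negative, and Igha and Jchain passed with the block (0.0325 and 0.0373). The part of lymphocytes and neutrophils in the Ptprc difference was not tested.

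Of 20 further genes shared by white blood cells, 20 were negative in the same comparison with a median of −1.36. None passed in the unblocked fit (smallest adjusted p 0.293), and 4 passed with the block, among them Fyb, an adaptor of T cells (−2.25 ± 0.36, adjusted p = 0.0150), Cd52 (−2.32 ± 0.39, 0.0240) and the granule proteoglycan core Srgn (−1.92 ± 0.33, 0.0268). Of 27 macrophage genes other than the members, 24 were negative with a median of −0.86 and none passed with or without the block. Ccr2, a receptor of monocytes, had −1.92 ± 0.51 and the oxidase subunit Ncf4 −1.67 ± 0.58. On the lists of the CSF1 axis, the Cd14 partners, the Tyrobp receptors, the C1q partners and the lysosomal genes, 0 of 11, 0 of 7, 0 of 6, 0 of 8 and 0 of 16 passed. Irf8, a transcription factor of macrophages and dendritic cells, had −1.50 ± 0.37 (adjusted p = 0.391).

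In normal epithelium the 2 gates were set apart by Cd14 and Ptprc in one direction and by C1qb and Csf1r in the other. CD29H CD24P cells are known to hold the basal cells and CD29P CD24H cells the luminal ones, and the keratins were arranged so: Krt14 had 17951 and 18829 units in CD29H CD24P cells, against 236 and 135 units in CD29P CD24H cells. Of the 8 members that passed the filter on dim genes, which left out C1qa and C1qc, 4 passed the test, 2 higher and 2 lower in CD29H CD24P cells, where 28.9% of all genes passed, 14.3% higher and 14.6% lower. With the preparation as a block the same 4 passed, beside 31.4% of all genes. The median over the 8 was 0.10 beside −0.02 over all genes.

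Cd14 was lower in CD29H CD24P cells by −3.48 ± 0.24 (limma, adjusted p = 8.87e-06, 2 arrays each), with 906 and 1089 units against 10484 and 12377 units in CD29P CD24H cells. Ptprc was lower by −1.69 ± 0.29 (adjusted p = 0.00206), with 227 and 138 units against 728 and 573 units. The C1qb probe set that was brightest on the normal arrays had 317 and 310.1 units in CD29H CD24P cells, against 49.3 and 76.9 units in CD29P CD24H cells, a difference of 1.88 ± 0.29 (adjusted p = 0.00114). Csf1r was higher by 0.90 ± 0.30 (adjusted p = 0.0479), with 800.4 and 605 units against 286 and 448 units. The Csf1r call did not hold with an offset of 1, without the filter, with all probe sets kept as separate rows or without the intensity trend. It also did not hold when any 1 of 3 of the 4 arrays was left out (0.60 to 1.09, adjusted p up to 0.316). The second Csf1r probe set had 168 and 217 units against 70.6 and 110 units. The dimmest had 111 and 122 units against 129 and 76.3 units, and so was lower in CD29H CD24P cells of preparation 1. Cd68 (0.29 ± 0.32) and Adgre1 (0.39 ± 0.31) did not pass. With all 17 arrays in the fit, only Cd14 passed. For C1qa, C1qc and Cd68 the signal was higher in CD29H CD24P cells in both preparations and, among the CD24 high cells of each tumor, lower in the CD29 high ones, as for 4.77% of all genes.

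**Figure D5:**
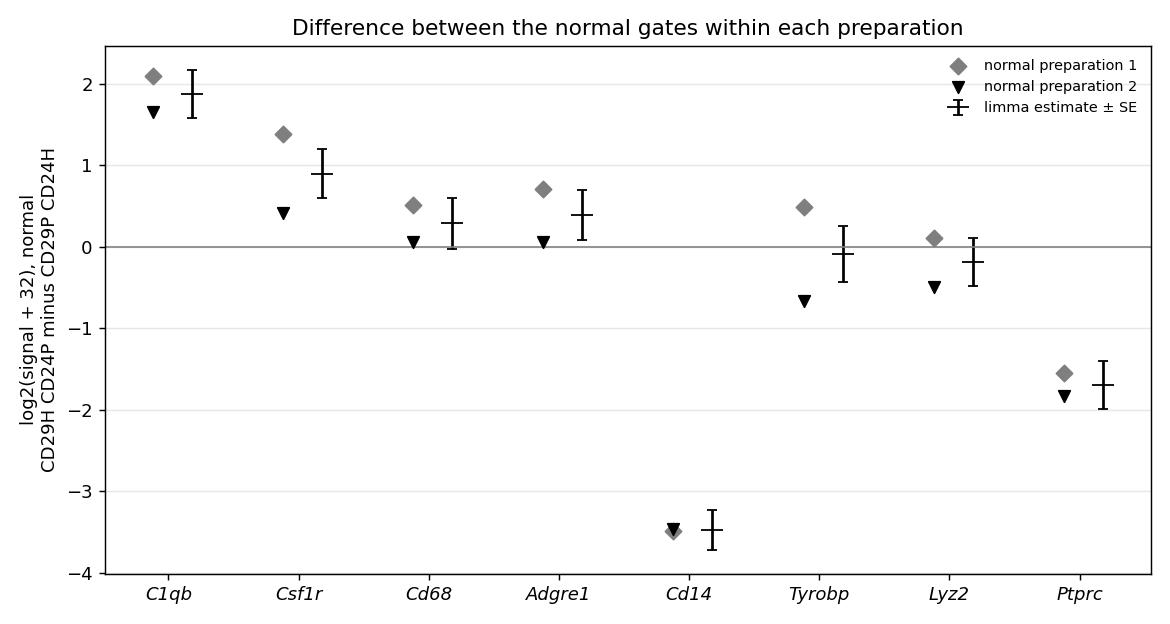
Difference in log2(signal + 32) between normal CD29H CD24P and CD29P CD24H cells in each preparation (points) and the limma estimate with its SE (bars), for the 8 genes that passed the filter. Cd14 and Ptprc lie below 0 and C1qb and Csf1r above 0 in both preparations.

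The partners of Cd14 moved in part with it. Of 6 tested, 3 were lower in CD29H CD24P cells, Tlr4 (−3.62 ± 0.32), its co-factor Ly96 (−1.56 ± 0.31) and the lipopolysaccharide-binding protein Lbp (−1.56 ± 0.27), and 1 was higher, Tlr2 (0.91 ± 0.26). Of 18 further genes shared by white blood cells, 10 were lower and 1 was higher, the first group including Cytip (−2.76 ± 0.24) and Lcp1 (−2.45 ± 0.24) and the second Arhgdib (2.17 ± 0.33). Neutrophil genes were lower for 3 of 3 tested. Their 11 markers summed to 808.8 and 1020 units in CD29H CD24P cells, against 11100 and 15340 units in CD29P CD24H cells. This sum was not split by gene, and whether neutrophils made it was not tested. The 28 white blood cell genes on the array summed to 5918 and 7148 units in CD29H CD24P cells, against 16200 and 20470 units in CD29P CD24H cells. The T and natural killer cell genes did not go this way as a list. Of 7 tested, 6 were positive and 1 was negative, with a median of 0.35. None of them passed in the unblocked fit, and 1 was lower with the block.

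Across arrays, 7 of the 9 macrophage genes followed one another and 2 did so less. Correlations are given here as descriptions, over arrays that share tumors and preparations. Over the 12 tumor arrays, Pearson's r with the mean of the other macrophage members was 0.960 for Lyz2, 0.933 for C1qb, 0.905 for C1qc, 0.903 for C1qa, 0.859 for Csf1r, 0.815 for Cd68 and 0.774 for Adgre1. It was 0.581 for Tyrobp and 0.0524 for Cd14, and 0.527 for Ptprc. Over the 17 sorted-cell arrays the same values were 0.982 for Lyz2, 0.800 for Tyrobp, 0.322 for Cd14 and 0.472 for Ptprc. Probe sets of the same gene had r between 0.815 and 0.985 for C1qb, 0.824 and 0.951 for Csf1r, and 0.804 for Ptprc.

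Among 10906 other genes, those most like the mean of the 9 macrophage members over the 17 arrays were Fpr2 (r = 0.977), a formyl peptide receptor of phagocytes, Clec4e (0.961), a lectin of macrophages, and F13a1 (0.960), followed by Ms4a6c, Cybb, Mrc1, Fcgr3, Ly86, Ms4a6d and Clec4a2 (0.956 to 0.944). Within the 12 tumor arrays alone these 10 had r between 0.801 (Clec4a2) and 0.967 (Ly86). The genes most like Ptprc were Srgn (0.889), Abhd17b (0.881), Fermt3 (0.868), Abcb1a, Tnfrsf1b, Cd53, Fyb, Inpp5d, Laptm5 and Rgs1 (0.858 to 0.833). Those most like Cd14, a gene added to this search after its values were seen, were Lcor (0.914), Pafah2, Kcnn4, the tight junction gene Ocln (0.864), Pik3ap1, Inhbb, Ceacam1, Tjp3, D5Ertd579e and Cobl (0.851). None of the 10 genes most like Cd14 was among those most like the macrophage mean.

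The single normal CD24L array, with fibroblast markers as given above, had 148 units of Adgre1, 730.4 of Csf1r, 131 of Lyz2 and 118 of C1qb, close to the range of the normal epithelial arrays. Its Ptprc was 2601 units and its Tyrobp 442 units, against at most 728 and 180.1 units on the 4 normal epithelial arrays. The T and natural killer cell markers summed to 18150 units there, Icos had 1803 units and Cd3e 429 units. With 1 array, these values have no replicate check.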

How the data were processed

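The authors made linear signal intensity values per probe set for the 18 arrays with GCOS (no version named), per the submitters' processing notes. Total RNA went through a 2-cycle amplification, per the labels' protocols. Once 2% of the values were trimmed at each end, the means of the deposited intensity matched across arrays. The series' design text says that the reference RNA served normalization and does not say how. Detection calls were not used here, so dim values are not told apart from background. All 18 columns were mapped to samples, and 0 were left unused.

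Symbols came from the platform annotation, which can be old: 34945 probe sets had 1 symbol, 932 had several and were not used, and all 15 member probe sets matched the gene table. Values were taken as log2(signal + 32), which understates changes of dim genes. For each gene the probe set of highest mean was kept, and the lowest 40% of genes were left out, which left 10916. Groups came from the sample titles. Comparisons used limma 3.58.1 (R 4.3.3; functions lmFit, contrasts.fit and eBayes, trend on) on the 12 tumor arrays, on the 5 normal arrays, or on 3 tumor means and 2 preparation means. Benjamini-Hochberg adjustment ran over all genes tested, with a threshold of 0.05. Plots were made with matplotlib 3.10.9 under Python 3.11.15. The limma procedure was tested on simulated data whose arrays were drawn independently, with no shared tumor. That test therefore does not cover the pairing of arrays by tumor.

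Arrays with the same tumor number deviated together from their group means (r of 0.389 to 0.728 over 18 pairs), so the numbers pair the arrays. The 2 normal preparations gave 0.0543. The highest correlation between any pair of arrays was 0.980. The members and the 17 gene lists (248 entries, 220 on the array) were chosen with earlier results of these data known. The rule for named genes took all members, up to 4 genes per list by the smallest p in the double-high against double-low comparison and then in tumors against normal cells, and the 10 genes most like each target. Cd24a and Itgb1 were named for a check of the gates. The further genes named in the normal comparison, Krt8, Krt14, Krt18, Cd3e and the search for genes like Cd14 were chosen after values were seen. Alternatives were the offset, quantile or median normalization, the filter (none or 60%), the choice of probe set, the intensity trend, the replicate block, a random block, the arrays in the fit, the actin ratio as a covariate and leaving out arrays, tumors or preparations. For tumors against normal cells, the actin covariate and leaving out the double-low array of tumor 2 were chosen once the data had been seen. The number of arrays limits the precision.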

Additional observations from a re-analysis of the deposited data

Results flagged for a closer look

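For 3 genes the CD29 high cells were lower at the CD24 high gate of each tumor and higher in both normal preparations, a pattern that 4.77% of all genes had. In tumors, CD29H CD24H minus CD29L CD24H cells differed by −1.08 for C1qa, −0.69 for C1qc and −0.54 for Cd68, negative in 3 of 3 tumors. In normal cells, CD29H CD24P minus CD29P CD24H cells differed by 1.59 and 1.69 for C1qa, 0.78 and 2.01 for C1qc, and 0.52 and 0.06 for Cd68 in preparations 1 and 2. The difference between tumor and normal effects was not tested. At the CD24 low gate, CD29H CD24L minus CD29L CD24L cells did not keep one sign over tumors 1, 2 and 7: 1.34, −0.79 and 0.27 for C1qa, 0.43, −2.03 and −0.29 for C1qc, and −0.93, −2.55 and 0.12 for Cd68. The gates are not the same in both tissues.

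On the normal CD24L array, which was a group of its own in the normal fit and entered the tumor comparison as an alternative only, Tyrobp had 442 units and Ptprc 2601 units, over 2 times the highest of the 4 normal epithelial arrays. The commercial reference RNA, whose makeup the sources used here do not state, exceeded the same bound for 6 members, with 6563 units of Csf1r, 2496 of Cd68, 895 of Adgre1, 877 of Tyrobp, 574 of Lyz2 and 7531 of Ptprc. It held 5.56 units of C1qa, 6.96 of C1qb and 3.49 of C1qc, each below most or all of the normal arrays.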

How the results depend on the processing

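Tumors against normal cells kept a positive sign for each member in 176 recomputed values. The count of 5 higher members became 1 with the normal CD24L array, 0 with the actin covariate (added after seeing the data), and 0 to 7 when a tumor or preparation was left out. The count of 4 in the normal comparison became 1 with all 17 arrays, 5 without the filter, 3 or 4 under the other settings and 3 to 4 when an array was left out. The count of 0 for CD29H CD24L minus CD29L CD24L cells became 1 with the tumor as a replicate block, where Ptprc passed at −1.74 (adjusted p = 0.0390). The replicate block changed no other call of a member, and in the normal comparison the preparation as a replicate block kept the same 4 calls. In tumors against normal cells, the random block made C1qa pass with limma (adjusted p = 0.0274). Leaving out the double-low array of tumor 2 there made C1qa and C1qc pass (adjusted p = 0.0472 and 0.0396). For the double-high against double-low cells the median of −1.15 lay between −1.68 and −0.33 when an array or tumor was left out, and between −1.26 and −0.92 under the other alternatives, and Ptprc lay between −2.19 and −1.55. The sign of 1 of 269 values turned there: Csf1r lay between −1.17 and 0.0526 in leave-outs, positive without the double-low array of tumor 2. In the other tumor comparisons 4 to 41 of 269 values changed sign, mostly when an array was left out. The cause was not tested. For signals near background, such as C1qa and C1qc on normal cells, the offset sets the size: with an offset of 1 both passed in tumors against normal cells, at 3.79 and 3.04.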
